A study of Mus musculus with 18 samples.

Results

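The genes of the major histocompatibility complex (MHC) and of antigen presentation were followed in mouse liver after IL-1β, within each of 3 RNA-Seq library preparation kits. Members were taken by symbol from the gene count tables. They are the 31 genes whose symbol starts with H2- and the 9 rows named B2m, Tap1, Tap2, Tapbp, Tapbpl, Cd74, Ciita (listed under 2 identifiers) and Nlrc5, so 40 of the 21018 genes that occur in at least 1 table. Of these Pico lists 36, V4 37 and TruSeq 40, and 35 are in all 3. By symbol, 19 are class I heavy chains, 6 belong to class I loading and regulation, 9 are class II chains, 3 are class II partners (Cd74 and the 2 rows of Ciita) and 3 carry an H2- name outside both classes (H2-Ke2, H2-Ke6 and H2-Gs10). H2-Gs10 was kept apart because of its symbol, but the annotation names the same gene (ENSMUSG00000035929) H2-Q4, which is a class I heavy chain. The animals were C57/B6J males of 12 weeks, 3 given 20 µg of IL-1β per kg of body weight (mice ILB.9579, ILB.9582 and ILB.9583) and 3 given saline (mice UNT.9574, UNT.9575 and UNT.9576), and whole liver was taken 4 hours later. RNA of each mouse entered all 3 kits, so the kits repeat the measurement on the same 6 animals and are not 3 independent experiments. Pico (SMARTer Stranded Total RNA-Seq Kit v2, 1.7 to 2.6 ng of RNA) keeps strand and depletes ribosomal cDNA, V4 (SMART-Seq v4, 0.8 to 1.3 ng) is unstranded and starts from poly(A) tails, and TruSeq (Stranded mRNA, 200 ng) keeps strand and selects poly(A) RNA. Kit and RNA amount differ together, and TruSeq also differs from the other kits in read length and sequencer. The paper credits its TruSeq experiment to an earlier study. These differences cannot be told apart.

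Class I molecules are a heavy chain paired with β2-microglobulin, and they show peptides from inside the cell to CD8 T cells and NK cells. The peptides are cut by the proteasome, carried into the endoplasmic reticulum by the Tap1-Tap2 transporter and fitted to the heavy chain with the help of tapasin (Tapbp) and its relative TAPBPR (Tapbpl). Class II molecules are a pair of α and β chains that show peptides from the endosome to CD4 T cells. They travel with the invariant chain (Cd74), are loaded by H2-DM and depend for their transcription on Ciita. In the liver nearly every cell carries class I, hepatocytes included, while class II belongs mainly to B cells, dendritic cells and macrophages such as Kupffer cells.

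After the authors resampled the reads of each kit to a similar depth, the members' counts rest on library totals of 4024632 to 4134070 counts with Pico, 12013453 to 12352473 with V4 and 12348864 to 12858237 with TruSeq. MHC genes resemble one another, so the share of their transcript windows that occur exactly in a transcript of another gene was counted. Only the protein-coding transcripts of the annotation were compared. That leaves out the pseudogenes H2-K2 and H2-M6-ps, the noncoding H2-Q8, and Nlrc5, which this annotation lists as a lincRNA. At the 125-base read length of TruSeq this share was 9.11% for H2-Q7 and 6.24% for H2-Q6 (each mostly with the other), 8.96% for H2-DMb1, 3.86% for H2-T22 and 2.83% for H2-D1. H2-K1 and B2m had none among the transcripts compared. By this measure counts of H2-Q6 against H2-Q7 and of H2-DMb1 against H2-DMb2 are less certain than those of H2-K1. Sharing of H2-K1 with H2-K2 was not examined. Exons of Tap1 overlap Psmb9 on the other strand by 200 bases, and H2-Aa overlaps H2-Ab1 by 17 bases. H2-T22, H2-Gs10, Tap2, H2-T23 and H2-T10 also have antisense neighbours. In the unstranded V4 table reads of such pairs cannot be told apart. On the same strand H2-Ke6 shares 1309 of its 1533 exon bases with Gm20427, Tapbp 61 with Zbtb22 and Cd74 12 with AC139759.1. There strand cannot separate the reads in any kit.

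Stretches upstream of the start sites are shown first, for 7 heavy chains named below. These genes are closely related copies, picked with their responses known, so shared letters among them are a description. RefSeq promoter sequences (GRCm38.p6) were matched by symbol to 24 of the 40 members. The 250 bases before each start were searched on both strands for the NF-κB consensus (by name), for AANNGAAA (the core that interferon regulatory factors bind) and for CCAAT, whose matches may overlap one another. In the windows below, read 5′ to 3′ on the gene's strand, the first run of capitals in each line except that of H2-Q10 is the NF-κB match and the last run is the AANNGAAA core, which reads TTTCACTT on this strand.
H2-K1: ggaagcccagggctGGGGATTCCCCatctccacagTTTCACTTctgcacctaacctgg
H2-D1: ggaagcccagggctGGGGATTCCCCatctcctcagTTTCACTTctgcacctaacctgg
H2-Gs10: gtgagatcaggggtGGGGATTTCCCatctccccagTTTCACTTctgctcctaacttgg
H2-Q6: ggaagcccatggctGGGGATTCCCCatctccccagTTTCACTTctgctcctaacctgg
H2-Q7: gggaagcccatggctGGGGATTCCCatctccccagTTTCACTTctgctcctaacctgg
H2-Q10: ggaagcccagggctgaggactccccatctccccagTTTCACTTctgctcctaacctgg
H2-T22: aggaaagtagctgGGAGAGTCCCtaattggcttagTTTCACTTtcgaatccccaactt
These lie at chr17:34000415-34000472 on the minus strand for H2-K1, at chr17:35262909-35262966 for H2-D1, at chr17:35379429-35379486 for H2-Gs10 (as H2-Q4), at chr17:35424663-35424720 for H2-Q6, at chr17:35439007-35439064 for H2-Q7, at chr17:35469899-35469956 for H2-Q10 and at chr17:36042911-36042968 on the minus strand for H2-T22. The windows of H2-K1 and H2-D1 differ at 1 of 58 bases. In H2-K1, H2-D1, H2-Gs10 and H2-Q6 matches at neighbouring positions overlap, so their first run of capitals is 1 base longer than that of H2-Q7. H2-Q10 kept the core but held no NF-κB match anywhere in its 250 bases. Its closest stretch in the window missed the consensus by 1 letter, and its window differed from that of H2-D1 at 4 of 58 bases. H2-T22 held both matches, with 12 bases between the 2 runs of capitals against 10 in the other windows that held both. Of all 32851 promoter windows, 3.9% held the NF-κB consensus, 21.3% the core, 33.8% CCAAT and 0.0913% a core that starts within 30 bases after an NF-κB match, a distance chosen with these windows in view. That last arrangement was present in 7 of the 11 class I heavy chains with an entry (H2-K1, H2-D1, H2-Q6, H2-Q7, H2-T22, H2-M2 and H2-M3, and not H2-Q10, H2-T23, H2-M5 or H2-M10.3), in H2-Gs10 and in 0 of the 8 class II chains.

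Among the class II chains, upstream windows of H2-Aa and H2-Eb1 are shown since both were lower after IL-1β in TruSeq, with the CCAAT match (read as ATTGG on this strand) in capitals.
H2-Aa: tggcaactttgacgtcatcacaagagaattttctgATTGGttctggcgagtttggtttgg
H2-Eb1: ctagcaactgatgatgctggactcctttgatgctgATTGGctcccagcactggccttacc
They lie at chr17:34287847-34287906 on the minus strand and at chr17:34305773-34305832. H2-Aa held an NF-κB match further upstream, and H2-Eb1, H2-DMa and H2-Ob held none. B2m held both an NF-κB match and a core in the opposite order, and Tapbp and Tap1 held neither. A match is a run of letters and was not tested as a binding site.

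In saline liver the level per length (CPM, counts scaled to a common library total, per kilobase of exon) set a steep order. In TruSeq B2m was highest at 1758 ± 65.7 (SD, n = 3), followed by H2-K1 at 329 ± 25.4, H2-Q10 at 303 ± 6.37 and H2-D1 at 128 ± 13.6. H2-K1 and H2-Q10 differed there by less than 2 SD, and V4 put them the other way round, with 844 ± 59.1 for H2-Q10 and 566 ± 36.1 for H2-K1. H2-Q10 encodes a class I chain that hepatocytes secrete. The next levels in TruSeq were 42.5 ± 3.43 for H2-T23 (the Qa-1 chain, a ligand of NK cell receptors) and 41.1 ± 4.80 for Cd74, which did not differ beyond their spread. Class II chains were lower, at 14.1 ± 0.396 for H2-Eb1, 13.2 ± 0.508 for H2-Aa and 11.8 ± 0.244 for H2-Ab1. Tap1 (4.32 ± 0.481), Nlrc5 (4.25 ± 0.326) and Tap2 (3.89 ± 0.167) were near one another and lower still. The length counts every annotated exon base of a gene over all its transcripts, and the order depends on it. It was 4348 bases for H2-Q10 against 2608 for H2-K1, and 2889 for H2-T23 against 1410 for Cd74. By CPM alone in TruSeq H2-Q10 (1315 ± 27.7) was above H2-K1 (859 ± 66.3). In the same way H2-T23 (123 ± 9.92) was above Cd74 (57.9 ± 6.76).

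After IL-1β, members of class I that passed the test mostly rose, and those of class II that passed it fell. Called means a Benjamini-Hochberg adjusted p of at most 0.05 in limma-voom with library totals, adjusted over all genes of the kit. In Pico 6 of the 36 members rose and 0 fell, where 6.78% of all genes rose and 10.8% fell. In V4 6 of 37 rose and 1 fell, against 3.6% and 7.41% of all genes. In TruSeq 8 of 40 rose and 9 fell, against 12.3% and 21.8%, so the share that fell in TruSeq was near that of all genes. H2-K1, H2-D1, H2-Q7, H2-Gs10 and Tapbpl rose in all 3 kits, Tapbp and H2-Q6 in 2 and Tap2 in 1. H2-Eb1 fell in 2 kits, and H2-Aa, H2-Ab1, H2-DMa, H2-Ob, Ciita, H2-T22, H2-T24 and B2m fell in TruSeq. The other 23 were called in no kit, and none was called in opposite directions. In bulk liver fewer cells of a type and less RNA per cell cannot be told apart.

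With library totals the middle of all genes lay at a log2 fold change of -0.12 (Pico), -0.22 (V4) and -0.17 (TruSeq), and TMM factors, a scaling that centres the bulk of the genes, raised it by 0.13, 0.17 and 0.16. With TMM factors 7 members rose and 0 fell in Pico (9.16% and 8.16% of all genes), 7 rose and 0 fell in V4 (4.79% and 4.84%), and 10 rose and 4 fell in TruSeq (16.7% and 16.1%). Of all calls, 38.6% were rises in Pico with library totals and 52.9% with TMM factors, and the shares were 32.7% and 49.7% in V4 and 36.0% and 50.9% in TruSeq. No member called with library totals changed sign.

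**Figure D1:**
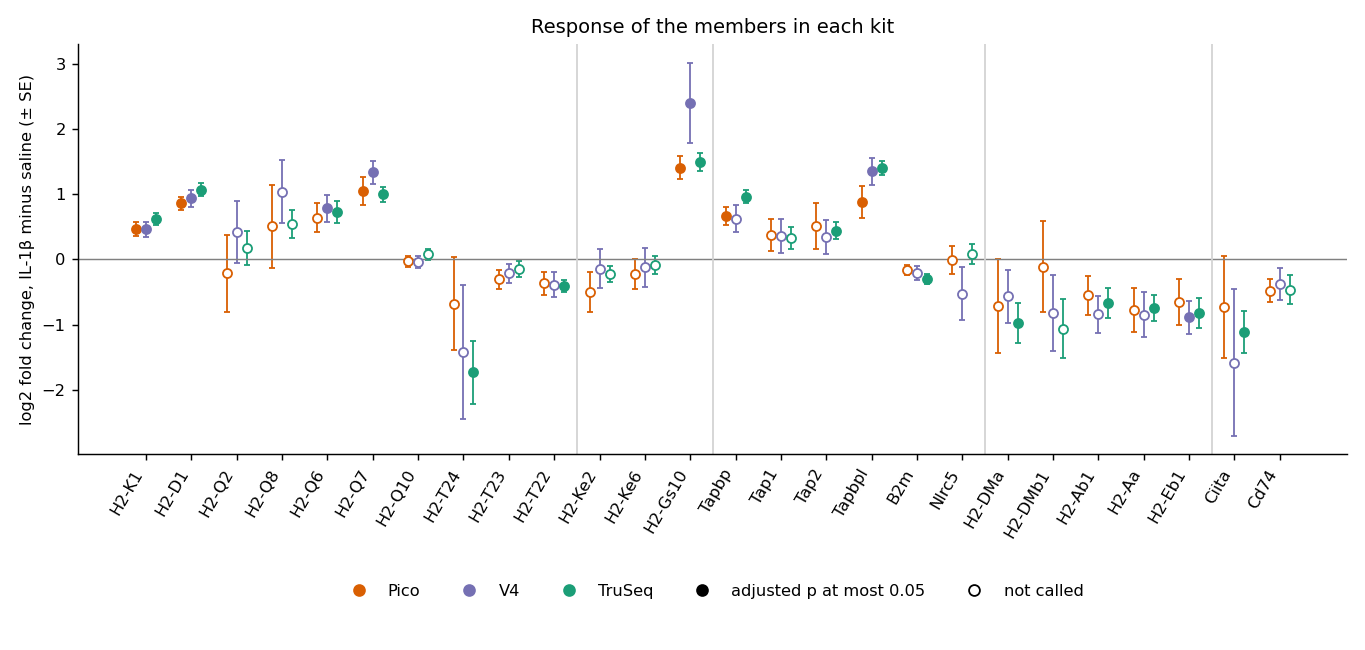
Log2 fold change, IL-1β minus saline, from limma-voom with library totals (y axis, ± SE, 3 mice a group) for 26 named members, grouped by vertical lines into class I heavy chains, H2- names outside both classes, class I loading and regulation, class II chains and class II partners. Within a group, genes on chromosome 17 follow their order on it, filled points are called, and the filled points above 0 are class I, H2-Gs10 or loading genes while those below 0 include H2-T24, H2-T22 and B2m besides class II.

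The 2 classical heavy chains measured in this strain, H2-K1 (ENSMUSG00000061232, chr17:34132962-34137278 in mm9) and H2-D1 (ENSMUSG00000073411, chr17:35399675-35404444), rose in every kit. H2-K1 had 3901, 4299 and 3134 counts in the IL-1β mice and 2669, 2807 and 2818 in the saline mice of Pico, listed here and below in the order ILB.9579, ILB.9582, ILB.9583 and UNT.9574, UNT.9575, UNT.9576. In V4 it had 24936, 27271 and 21791 counts in the IL-1β mice and 16738, 19093 and 18010 in the saline mice, and in TruSeq 16626, 17456 and 15108 counts in the IL-1β mice and 10404, 10495 and 12033 in the saline mice. Every IL-1β mouse was above every saline mouse in each kit. The log2 fold changes (± standard error, as for all fold changes below) were, in the order Pico, V4 and TruSeq kept from here on, 0.46 ± 0.10 (adjusted p = 0.00408), 0.46 ± 0.12 (adjusted p = 0.0305) and 0.62 ± 0.09 (adjusted p = 0.000831), or 1.39-fold, 1.38-fold and 1.54-fold of the saline mean. With 1 mouse left out, which leaves 2 in its group, the Pico call was lost without mouse ILB.9579, ILB.9582 or UNT.9574 (adjusted p = 0.0570 to 0.0692) and the V4 call without mouse ILB.9579, ILB.9582, UNT.9574, UNT.9575 or UNT.9576 (adjusted p = 0.0517 to 0.148).

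H2-D1 moved more than H2-K1 in the same libraries. In Pico H2-D1 had 1832, 2008 and 1770 counts in the IL-1β mice and 1028, 1081 and 1034 in the saline mice. In V4 H2-D1 had 22577, 28111 and 22416 counts in the IL-1β mice and 11326, 13209 and 13721 in the saline mice. In TruSeq H2-D1 had 8113, 9012 and 8568 counts in the IL-1β mice and 4118, 3811 and 4729 in the saline mice. The groups did not overlap in any kit. Its log2 fold changes were 0.86 ± 0.10 (adjusted p = 9.37e-06), 0.94 ± 0.13 (adjusted p = 0.00140) and 1.07 ± 0.10 (adjusted p = 5.49e-05). The log2 ratio of H2-D1 to H2-K1 counts, which no scaling of the libraries alters, went from -1.40 ± 0.04 to -1.0 ± 0.16 (SD, n = 3, Pico), from -0.50 ± 0.09 to -0.02 ± 0.11 (V4) and from -1.38 ± 0.07 to -0.94 ± 0.11 (TruSeq). The 2 treatments did not overlap in this ratio in any kit, and V4 read H2-D1 relatively higher than the other kits in both treatments.

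Of the non-classical Q genes, H2-Q7 (chr17:35576100-35580714) and H2-Q6 (chr17:35561795-35567000), which encode Qa-2 chains, stood higher after IL-1β. In Pico H2-Q7 had 239, 216 and 186 counts in the IL-1β mice and 129, 76 and 115 in the saline mice. In V4 H2-Q7 had 2201, 2509 and 1785 counts in the IL-1β mice and 893, 849 and 814 in the saline mice. In TruSeq H2-Q7 had 891, 1028 and 910 counts in the IL-1β mice and 479, 439 and 542 in the saline mice. Every IL-1β mouse was above every saline mouse of its kit. H2-Q7 rose by a log2 of 1.05 ± 0.21 (adjusted p = 0.00233), 1.34 ± 0.18 (adjusted p = 0.00106) and 1.0 ± 0.11 (adjusted p = 0.000163). H2-Q6 rose in V4, by 0.78 ± 0.21 (adjusted p = 0.0379), and TruSeq, by 0.73 ± 0.17 (adjusted p = 0.00813). In Pico it was at 0.64 ± 0.23 (adjusted p = 0.0633) with 219, 204 and 123 counts in the IL-1β mice and 119, 116 and 110 in the saline mice, which passed with TMM factors (adjusted p = 0.0213). It was also called in Pico without mouse ILB.9583 (adjusted p = 0.0106). Its V4 call was lost without any 1 of the mice (adjusted p = 0.0540 to 0.115) and its TruSeq call without mouse UNT.9574 or UNT.9575 (adjusted p = 0.0531 to 0.0593). H2-Q8, next to them on the chromosome, had 44, 41 and 36 counts in the IL-1β mice and 32, 25 and 28 in the saline mice of TruSeq and was not called there with library totals (0.55 ± 0.22, adjusted p = 0.0793) but with TMM factors (0.71, adjusted p = 0.0306).

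H2-Gs10 (chr17:35516562-35522235, H2-Q4 in the annotation) had the largest rise of the called members in each kit. In Pico H2-Gs10 had 394, 370 and 291 counts in the IL-1β mice and 135, 148 and 119 in the saline mice. In V4 H2-Gs10 had 91, 86 and 62 counts in the IL-1β mice and 11, 7 and 38 in the saline mice. In TruSeq H2-Gs10 had 1341, 1064 and 1030 counts in the IL-1β mice and 477, 376 and 401 in the saline mice. The groups did not overlap in any kit, but V4 counted far fewer reads of this gene than TruSeq at a like library total. The log2 fold changes were 1.41 ± 0.18 (adjusted p = 3.96e-05), 2.41 ± 0.61 (adjusted p = 0.0299) and 1.49 ± 0.14 (adjusted p = 4.89e-05). Its V4 call was lost without mouse ILB.9579, ILB.9582, ILB.9583, UNT.9574 or UNT.9575 (adjusted p = 0.0526 to 0.133).

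**Figure D2:**
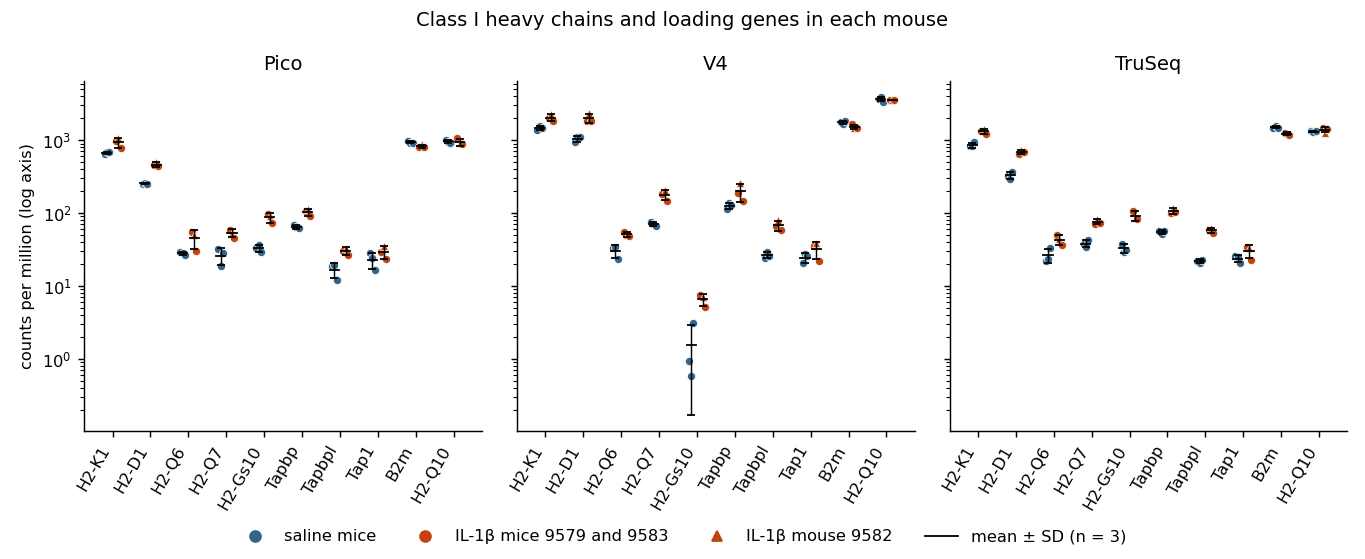
CPM (log axis) of class I heavy chains and loading genes in each library, saline mice in blue and IL-1β mice in red, with mouse ILB.9582 as a triangle and bars for the mean ± SD of 3 mice. H2-K1, H2-D1, H2-Q7, H2-Gs10, Tapbp and Tapbpl show the IL-1β mice above the saline mice in each kit, while H2-Q10 overlaps.

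Not every class I heavy chain followed. H2-Q10 lies at chr17:35607034-35611508, next to the other Q genes. In Pico H2-Q10 had 4318, 3642 and 3531 counts in the IL-1β mice and 4120, 3928 and 3832 in the saline mice. In V4 H2-Q10 had 43276, 43278 and 42904 counts in the IL-1β mice and 44507, 47273 and 41981 in the saline mice. In TruSeq H2-Q10 had 18442, 15610 and 17735 counts in the IL-1β mice and 16921, 16436 and 17035 in the saline mice. The groups overlapped in each kit. Its log2 fold changes of -0.03 ± 0.08, -0.04 ± 0.10 and 0.08 ± 0.09 were not called (adjusted p = 0.864, 0.831 and 0.534), and with TMM factors they stood at 0.10, 0.13 and 0.24, also not called. H2-T23 was not called either, at -0.31, -0.22 and -0.15. H2-T22, a ligand of some γδ T cell receptors, had 829, 805 and 744 counts in the IL-1β mice and 1081, 1114 and 1069 in the saline mice of TruSeq and fell by 0.41 ± 0.09 (adjusted p = 0.00677) on the log2 scale. The call was lost with TMM factors (-0.26, adjusted p = 0.0535), and in Pico and V4 the values of -0.37 and -0.39 were not called although the groups did not overlap. H2-T24, which has no promoter entry, had 5, 18 and 5 counts in the IL-1β mice and 34, 33 and 19 in the saline mice of TruSeq and fell by 1.73 ± 0.48 (adjusted p = 0.0201), and the call was lost without mouse ILB.9579, ILB.9583, UNT.9574 or UNT.9575 (adjusted p = 0.0765 to 0.106). Its values of -0.68 ± 0.72 (Pico) and -1.42 ± 1.03 (V4) were not called.

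Of the light chain and the loading genes, the tapasin pair rose and the light chain did not. Tapbpl lies outside the MHC, at chr6:125173951-125181878. In Pico Tapbpl had 123, 135 and 107 counts in the IL-1β mice and 76, 79 and 50 in the saline mice. In V4 Tapbpl had 801, 963 and 709 counts in the IL-1β mice and 291, 354 and 322 in the saline mice. In TruSeq Tapbpl had 726, 761 and 660 counts in the IL-1β mice and 281, 262 and 293 in the saline mice. The IL-1β mice were all above the saline mice. Tapbpl rose by a log2 of 0.88 ± 0.24 (adjusted p = 0.0178), 1.35 ± 0.21 (adjusted p = 0.00230) and 1.40 ± 0.11 (adjusted p = 1.93e-05), and its Pico call was lost without mouse ILB.9579, ILB.9582 or UNT.9576 (adjusted p = 0.0718 to 0.0941). Tapbp lies at chr17:34052844-34066235. In Pico Tapbp had 425, 452 and 369 counts in the IL-1β mice and 278, 265 and 254 in the saline mice. In V4 Tapbp had 2308, 3107 and 1760 counts in the IL-1β mice and 1346, 1644 and 1573 in the saline mice. In TruSeq Tapbp had 1259, 1462 and 1279 counts in the IL-1β mice and 727, 661 and 720 in the saline mice. Here too every IL-1β mouse was above every saline mouse. Tapbp rose in Pico by 0.67 ± 0.14 (adjusted p = 0.00356) and in TruSeq by 0.96 ± 0.10 (adjusted p = 0.000112). In V4, where its IL-1β mice spread more widely, 0.63 ± 0.21 (adjusted p = 0.0811) was not called with library totals and was called with TMM factors (0.79, adjusted p = 0.0306) or without mouse ILB.9583 (adjusted p = 0.0460).

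The transporter genes gave smaller values. Tap2 had 258, 275 and 214 counts in the IL-1β mice and 187, 180 and 197 in the saline mice of TruSeq and rose there by 0.44 ± 0.13 (adjusted p = 0.0271), a call lost without mouse ILB.9579, ILB.9582, UNT.9574, UNT.9575 or UNT.9576 (adjusted p = 0.0576 to 0.0907). In Pico and V4 it stood at 0.52 and 0.34 with overlapping groups. Tap1 had 428, 403 and 284 counts in the IL-1β mice and 322, 318 and 265 in the saline mice of TruSeq, and its values of 0.38 ± 0.24, 0.36 ± 0.26 and 0.33 ± 0.17 were not called with library totals. In TruSeq Tap1 was called with TMM factors (adjusted p = 0.0432 against 0.172) and without mouse ILB.9583 (adjusted p = 0.0232). Nlrc5, the transactivator of class I genes, was at -0.01 ± 0.22, -0.53 ± 0.41 and 0.08 ± 0.15, with overlapping groups in each kit and no call. B2m (chr2:121973422-121978819) had 15574, 15552 and 14483 counts in the IL-1β mice and 18871, 20172 and 18890 in the saline mice of TruSeq and fell by 0.30 ± 0.08 (adjusted p = 0.0163) with library totals, a call that TMM factors ended (-0.14, adjusted p = 0.203). In Pico and V4 it was at -0.17 and -0.21, not called, with every IL-1β mouse below every saline mouse. The log2 ratio of B2m to H2-K1 counts went from 0.82 ± 0.15 to -0.11 ± 0.05 (TruSeq), from 0.47 ± 0.08 to -0.16 ± 0.19 (Pico) and from 0.27 ± 0.15 to -0.41 ± 0.20 (V4), with every IL-1β mouse below every saline mouse.

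Summed up by class, the 25 class I heavy chain, loading and regulation genes had 7 rises and 3 falls in TruSeq, where all were tested and 12.3% of all genes rose. Of the 23 listed in Pico 5 rose and 0 fell, where 6.78% of all genes rose, and of the 24 in V4 5 rose and 0 fell, against 3.6%. Over those with a mean of at least 10 counts the median log2 fold change was 0.42 (Pico), 0.42 (V4) and 0.13 (TruSeq), beside -0.13, -0.19 and -0.15 for all such genes. Without mouse ILB.9582 the class I medians were 0.21, 0.21 and 0.12, with 3, 3 and 6 rises. Among all genes 741 of 17844, 373 of 17844 and 1875 of 19184 rose in those fits. Of the class II chains and partners 0 of 10 were called in Pico, 1 of 10 in V4 and 6 of 12 in TruSeq, all of them lower, where 10.8%, 7.41% and 21.8% of all genes fell. The V4 share was thus near that of all genes. Their median was -0.66, -0.84 and -0.82, and in each kit every one of the 5, 6 and 7 genes behind it was below 0. With a mean of at least 10 counts, 6489 of 11137, 7213 of 11772 and 7502 of 12593 of all genes were also below 0. Class I heavy chain, loading and regulation genes were split, with 7 of 16, 7 of 19 and 8 of 20 below 0. Without mouse ILB.9582 class II had 0, 3 and 6 falls, where 1024, 596 and 3239 of all genes fell.

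H2-Aa, H2-Ab1 and H2-Eb1 were lowest in 2 of the 3 IL-1β mice and nearer to saline in the third. H2-Aa (chr17:34406276-34424772) encodes the α chain of I-A. In Pico H2-Aa had 31, 70 and 34 counts in the IL-1β mice and 88, 85 and 54 in the saline mice. In V4 H2-Aa had 190, 457 and 178 counts in the IL-1β mice and 456, 568 and 357 in the saline mice. In TruSeq H2-Aa had 156, 283 and 164 counts in the IL-1β mice and 329, 349 and 325 in the saline mice. Mice ILB.9579 and ILB.9583 were below every saline mouse, and ILB.9582 overlapped them in Pico and V4. H2-Ab1 (chr17:34400154-34406363) encodes its β chain. In Pico H2-Ab1 had 47, 100 and 49 counts in the IL-1β mice and 73, 102 and 104 in the saline mice. In V4 H2-Ab1 had 448, 742 and 283 counts in the IL-1β mice and 851, 834 and 782 in the saline mice. In TruSeq H2-Ab1 had 127, 236 and 116 counts in the IL-1β mice and 241, 254 and 250 in the saline mice. The groups overlapped in Pico and stood apart in V4 and TruSeq. H2-Eb1 (chr17:34442828-34453144) encodes the β chain of I-E. In Pico H2-Eb1 had 29, 55 and 24 counts in the IL-1β mice and 57, 69 and 41 in the saline mice. In V4 H2-Eb1 had 152, 253 and 163 counts in the IL-1β mice and 316, 362 and 352 in the saline mice. In TruSeq H2-Eb1 had 92, 185 and 95 counts in the IL-1β mice and 217, 208 and 218 in the saline mice. Its groups overlapped in Pico through ILB.9582 and stood apart in V4 and TruSeq. Mouse ILB.9582 was the highest of the IL-1β mice for these 3 genes in each of the 3 kits. In TruSeq the 3 genes fell by 0.74 ± 0.20 (adjusted p = 0.0170), 0.67 ± 0.23 (adjusted p = 0.0454) and 0.82 ± 0.23 (adjusted p = 0.0203) on the log2 scale.

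In V4 H2-Eb1 fell by 0.89 ± 0.25 (adjusted p = 0.0480), while H2-Aa at -0.85 ± 0.34 (adjusted p = 0.148) and H2-Ab1 at -0.85 ± 0.29 (adjusted p = 0.0860) were not called. In Pico the values were -0.78 ± 0.34, -0.55 ± 0.29 and -0.66 ± 0.36, and 0 of 10 class II chains and partners were called by limma-voom, with 2 at an unadjusted p under 0.05 and 0 called by edgeR or DESeq2. With TMM factors the V4 call of H2-Eb1 was lost (adjusted p = 0.109), and in TruSeq H2-Aa (0.0425), H2-Eb1 (0.0458) and Ciita (0.0454) were called, with H2-Ab1 at 0.109. Without mouse ILB.9582 the TruSeq values of H2-Aa, H2-Ab1 and H2-Eb1 went to -1.02, -0.99 and -1.15 (adjusted p = 0.00208, 0.00288 and 0.00203), and those of V4 to -1.29, -1.20 and -1.12 (0.0454, 0.0303 and 0.0455). Leaving out any 1 of the other mice instead ended the TruSeq calls, at an adjusted p of 0.0655 to 0.0901 for H2-Aa, 0.141 to 0.198 for H2-Ab1 and 0.0707 to 0.108 for H2-Eb1, and the V4 call of H2-Eb1, at 0.0722 to 0.163. In TruSeq edgeR called 1 gene of class II, Ciita, and DESeq2 1, H2-Aa (0.0411), with H2-Eb1 at 0.0516 in DESeq2. Among all genes edgeR and DESeq2 called 3086 and 2776 of 19424 lower there, and 1745 and 1468 of 18108 lower in Pico.

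**Figure D3:**
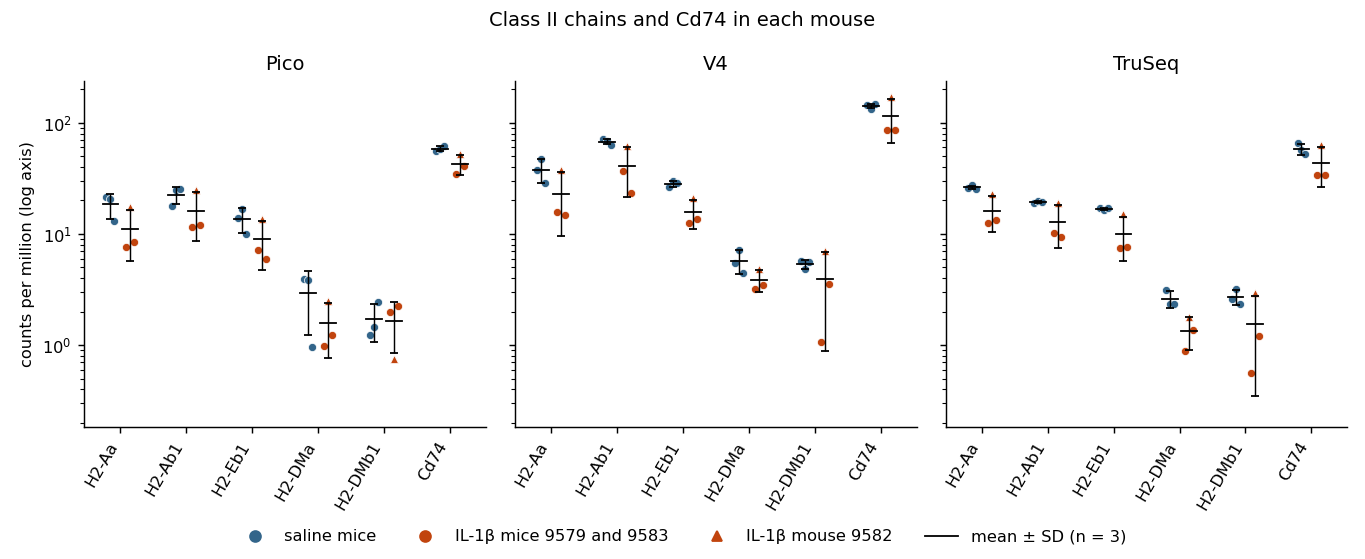
CPM (log axis) of class II chains and Cd74 in each library, saline mice in blue and IL-1β mice in red, with mouse ILB.9582 as a triangle and bars for the mean ± SD of 3 mice. For H2-Aa, H2-Ab1, H2-Eb1 and Cd74 the triangle lies near the saline mice and the other IL-1β mice lie below, in each of the 3 kits.

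Mouse ILB.9582 was also the highest of the IL-1β mice for Cd74, the invariant chain. In Pico Cd74 had 141, 209 and 164 counts in the IL-1β mice and 226, 241 and 256 in the saline mice. In V4 Cd74 had 1056, 2066 and 1043 counts in the IL-1β mice and 1725, 1619 and 1824 in the saline mice. In TruSeq Cd74 had 418, 786 and 423 counts in the IL-1β mice and 827, 721 and 670 in the saline mice. Mouse ILB.9582 was above every saline mouse in V4, among them in TruSeq and below them in Pico. The log2 fold changes of -0.48 ± 0.18 (adjusted p = 0.0741), -0.38 ± 0.24 (adjusted p = 0.381) and -0.46 ± 0.22 (adjusted p = 0.143) were not called, and without mouse ILB.9582 they went to -0.64, -0.71 and -0.77 with a call in TruSeq (adjusted p = 0.00712). H2-DMa, a chain of the peptide exchange factor H2-DM, had 11, 22 and 17 counts in the IL-1β mice and 40, 30 and 30 in the saline mice of TruSeq and fell by 0.98 ± 0.30 (adjusted p = 0.0320), which was not called with TMM factors (adjusted p = 0.0635), without mouse ILB.9579, ILB.9583, UNT.9574, UNT.9575 or UNT.9576 (adjusted p = 0.0599 to 0.113) or in Pico and V4. H2-DMb1 had 7, 36 and 15 counts in the IL-1β mice and 33, 41 and 30 in the saline mice of TruSeq and was called only without mouse ILB.9582 (adjusted p = 0.0227). H2-Ob, a chain of the H2-DM inhibitor H2-O, had 6, 3 and 4 counts in the IL-1β mice and 15, 11 and 9 in the saline mice of TruSeq and fell by 1.30 ± 0.41 (adjusted p = 0.0347), with no call under TMM factors (adjusted p = 0.0592) or without mouse ILB.9582, ILB.9583, UNT.9574 or UNT.9575 (adjusted p = 0.0683 to 0.112). Ciita (ENSMUSG00000022504) had 8, 8 and 7 counts in the IL-1β mice and 22, 17 and 15 in the saline mice of TruSeq and fell by 1.12 ± 0.32 (adjusted p = 0.0238), a call lost without mouse ILB.9579, ILB.9582, ILB.9583 or UNT.9574 (adjusted p = 0.0516 to 0.0611) and with DESeq2. These last 4 genes had at most 41 counts in a TruSeq library, so their values are coarse. H2-DMb2, H2-Oa, H2-Eb2 and the second row of Ciita had at most 13 counts in any library and were called in no kit with all mice. H2-Oa in V4 passed without mouse UNT.9575 (adjusted p = 0.0484).

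Summed markers of the cells that carry class II, and of other liver cells, were read beside these values. Among all genes 6.78%, 3.6% and 12.3% rose in Pico, V4 and TruSeq, and 10.8%, 7.41% and 21.8% fell. Of 8 Kupffer cell markers 4 fell in Pico (Clec4f, Cd5l, Csf1r and Vsig4), 2 in V4 and 5 in TruSeq, where Marco rose, and their summed CPM in TruSeq were 67.3 to 97.7 in the IL-1β mice and 136 to 229 in the saline mice. The groups did not overlap in Pico (103 to 139.9 in the IL-1β mice and 187 to 246 in the saline mice) or V4 (53.0 to 83.2 in the IL-1β mice and 102 to 199.9 in the saline mice) either. Mouse ILB.9582 was the highest of the IL-1β mice in this sum in all 3 kits. Of the B cell markers, Cd79a and Cd79b, the signalling chains of the B cell receptor, fell in TruSeq and Cd79b in V4. Cd79a had 2, 1 and 2 counts in the IL-1β mice and 9, 6 and 6 in the saline mice of TruSeq and Cd79b 3, 1 and 1 counts in the IL-1β mice and 19, 9 and 7 in the saline mice, and Ms4a1 was at 0 in at least 1 library of each kit. Of 7 dendritic cell markers 1 fell in TruSeq and 0 in the other kits, at sums in TruSeq of 9.15 to 9.82 in the IL-1β mice and 10.4 to 12.2 in the saline mice. The sums overlapped in Pico (10.1 to 18.8 in the IL-1β mice and 16.0 to 17.9 in the saline mice) and in V4 (4.44 to 8.63 in the IL-1β mice and 2.91 to 6.53 in the saline mice). Of 6 T and NK cell markers, 5 of them listed in Pico, 1 fell in TruSeq and 0 in the other kits. Their sums in TruSeq were 1.13 to 2.02 in the IL-1β mice and 2.57 to 3.20 in the saline mice. These sums too overlapped in Pico (1.48 to 5.20 in the IL-1β mice and 1.94 to 2.94 in the saline mice) and in V4 (1.08 to 2.90 in the IL-1β mice and 2.40 to 6.64 in the saline mice). Of 5 endothelial markers 4 fell and Lyve1 rose in TruSeq, at sums of 58.4 to 80.5 in the IL-1β mice and 135 to 154 in the saline mice, while 3 fell and Lyve1 rose in Pico and 2 fell in V4. Of the neutrophil markers listed 4 of 4 rose with Pico, 3 of 4 with V4 and 4 of 5 in TruSeq. The TruSeq sums were 41.7 to 82.4 in the IL-1β mice and 3.13 to 5.85 in the saline mice. Mouse ILB.9582 was the highest in each kit. Of 5 hepatocyte markers 5 fell in Pico (3 with TMM factors), 2 in V4 and 3 in TruSeq (2 with TMM factors), at sums in TruSeq of 60930.3 to 67383 in the IL-1β mice and 86550.0 to 104914 in the saline mice, so the labelled tissue carried its defining genes in every library. The part of these cells in the MHC values was not tested.

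Class I was set against class II within each library, as the ratio of the summed counts of the 19 class I heavy chains to those of the 9 class II chains, which no library scaling alters. In Pico the ratio was 89.9, 45.3 and 71.9 in the IL-1β mice and 35.5, 30.5 and 39.8 in the saline mice. V4 gave 114, 65.9 and 131 against 43.8, 44.3 and 48.2, and TruSeq 117, 59.6 and 108 against 39.5, 38.2 and 43.4. Every IL-1β mouse lay above every saline mouse in each kit, with mouse ILB.9582 the lowest of its group. On the log2 scale the mean went from 5.13 ± 0.19 to 6.05 ± 0.50 (SD, n = 3, Pico), from 5.50 ± 0.07 to 6.64 ± 0.52 (V4) and from 5.33 ± 0.10 to 6.51 ± 0.53 (TruSeq). The changes of 0.92, 1.13 and 1.18 are described without a test, and each exceeded the SD within both treatments.

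The means of both terms of the ratio moved. Summed class I heavy chains were 1.23-fold, 1.23-fold and 1.33-fold of the saline mean CPM in Pico, V4 and TruSeq, and summed class II chains 0.674-fold, 0.596-fold and 0.617-fold. For summed class II CPM mouse ILB.9582 lay within the saline range in Pico (59.4 against 51.5 to 68.5) and V4 (132.42 against 132.28 to 158.04). It lay below that range in TruSeq (62.5 against 67.5 to 70.3). Without mouse ILB.9582 the class II values were 0.516-fold, 0.440-fold and 0.476-fold. H2-Q10, which was not called, weighed on the class I sum, and without it, a setting chosen after seeing the data, the changes of the log2 ratio were 1.14, 1.46 and 1.42.

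**Figure D4:**
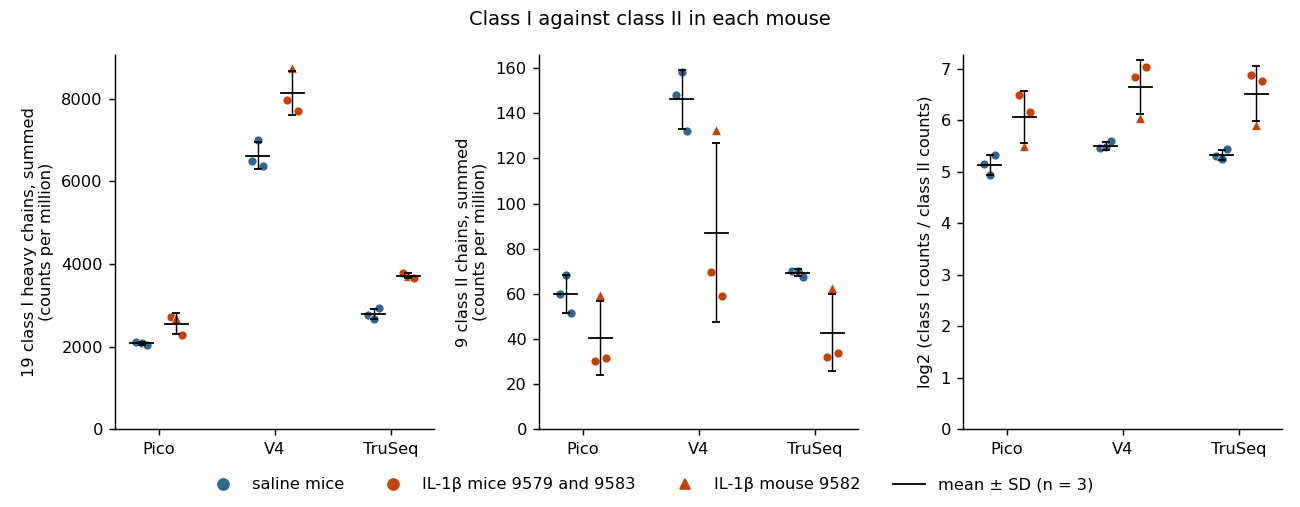
Summed class I heavy chain CPM (left), summed class II chain CPM (middle) and the log2 ratio of the 2 sums (right) in each library by kit, with bars for the mean ± SD of 3 mice. The IL-1β mice lie above the saline mice for class I and for the ratio in every kit, and mouse ILB.9582 (triangle) is the one IL-1β mouse near the saline level of class II.

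The make-up of the heavy chain counts shifted with treatment and differed by kit. With H2-Gs10 included, H2-Q10 supplied 45.4% ± 1.18 (SD, n = 3) of them in saline Pico libraries, 55.4% ± 1.90 in V4 and 46.5% ± 1.57 in TruSeq, and 35.9% ± 2.97, 43.9% ± 2.60 and 36.6% ± 2.92 after IL-1β. H2-D1 went from 12% ± 0.347 to 17.6% ± 1.30 (Pico), from 15.8% ± 1.47 to 24.7% ± 1.77 (V4) and from 11.7% ± 0.716 to 18.2% ± 1.21 (TruSeq). H2-K1 held 30.3% ± 1.20 and 34.7% ± 2.27 in TruSeq and 22.3% ± 0.744 and 25% ± 1.36 in V4. H2-Gs10 held 1.16% ± 0.157 and 2.42% ± 0.311 in TruSeq but 0.0235% ± 0.0216 and 0.0807% ± 0.0136 in V4. Its log2 ratio to H2-K1 in IL-1β mice was -3.42 ± 0.12 (Pico), -3.85 ± 0.20 (TruSeq) and -8.29 ± 0.18 (V4), a gap between V4 and the stranded kits that was wider than any spread between mice.

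**Figure D5:**
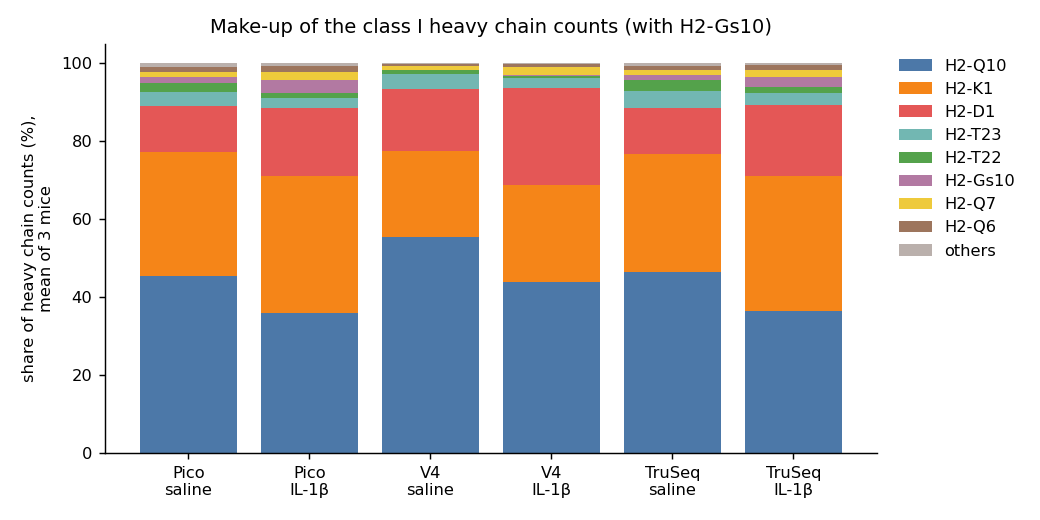
Share of each gene in the summed counts of class I heavy chains and H2-Gs10 (%, mean of 3 mice), stacked by kit and treatment. H2-Q10 takes a smaller share and H2-D1 a larger one after IL-1β in each kit, and V4 differs from the other kits in both treatments.

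Whether the response of a member differed between kits was asked with the interaction of kit and treatment on the 12 libraries of 2 kits. No gene was called in any of the 3 pairs (0% of 17207, 17147 and 16395 genes), and so no member among the 36, 37 and 35 tested. At an unadjusted p under 0.05 there were 2, 0 and 1 members, beside 5.49%, 6.36% and 5.49% of all genes for Pico and TruSeq, V4 and TruSeq, and Pico and V4. With the mouse as a replicate block 0 members were called as well, and 2, 1 and 1 were under that unadjusted p. The 95% intervals below use a normal approximation, so they are somewhat narrower than the test itself allows with so few libraries. They come from the fit without the mouse block and give an approximate range for each difference. The response of H2-D1 in Pico minus TruSeq differed by -0.21 ± 0.13, 95% interval -0.47 to 0.05, that of H2-K1 by -0.16 ± 0.14, 95% interval -0.44 to 0.12 and that of Tapbpl by -0.52 ± 0.25, 95% interval -1.01 to -0.04 (unadjusted p = 0.0490, adjusted p = 0.900). In V4 minus TruSeq H2-Gs10 differed by 0.91 ± 0.56, 95% interval -0.17 to 2.0, and H2-Aa by -0.11 ± 0.45, 95% interval -0.99 to 0.78, which leaves room for a smaller and for a larger fall in V4.

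Other genes of the pathway were read from 4 lists. Beside their calls, 6.78%, 3.6% and 12.3% of all genes rose in Pico, V4 and TruSeq, and 10.8%, 7.41% and 21.8% fell. Of 12 listed genes for peptide supply and folding of class I, 2 rose in each of Pico and V4 and 5 in TruSeq (8 with TMM factors), and 0 fell in any kit. Hspa5, the chaperone BiP of the endoplasmic reticulum, was the one called in all 3, at log2 fold changes of 1.37 ± 0.16, 1.27 ± 0.22 and 1.64 ± 0.28. Its saline mice were not alike, with 46112, 43309 and 48875 counts in the IL-1β mice and 11074, 27115 and 11682 in the saline mice of TruSeq, mouse UNT.9575 being the highest. Of the immunoproteasome subunits in the tables, Psmb10 was at 0.27 ± 0.26 (adjusted p = 0.568), 0.83 ± 0.21 (adjusted p = 0.0256) and 0.98 ± 0.13 (adjusted p = 0.000367), and Psmb8 at 0.25 ± 0.27 (adjusted p = 0.605), 0.61 ± 0.19 (adjusted p = 0.0613) and 0.49 ± 0.13 (adjusted p = 0.0188), both named after their values were seen. The V4 call of Psmb10 was lost without mouse ILB.9579, ILB.9582, ILB.9583, UNT.9574 or UNT.9575 (adjusted p = 0.0518 to 0.111) and the TruSeq call of Psmb8 without mouse ILB.9579, ILB.9582, UNT.9574, UNT.9575 or UNT.9576 (adjusted p = 0.0606 to 0.0682), while Psmb8 passed in V4 with TMM factors (0.0250). Psmb9 was on the list but was not found under that symbol in any of the 3 tables. Of 7 genes for class II processing 1 rose in each kit, the endosomal protease Ctsl, at 0.87 ± 0.10 (adjusted p = 1.60e-05), 0.80 ± 0.14 (adjusted p = 0.00523) and 0.92 ± 0.09 (adjusted p = 7.04e-05). The protease Ctss, which trims the invariant chain, fell in TruSeq (-0.73 ± 0.19, adjusted p = 0.0157) and Ifi30, a thiol reductase of the endosome, in Pico (-1.45 ± 0.44, adjusted p = 0.0302), also named after their values were seen. Those calls were lost without mouse ILB.9579, ILB.9583, UNT.9574 or UNT.9575 (adjusted p = 0.0536 to 0.0814) and without any 1 of the mice (adjusted p = 0.0529 to 0.144).

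Of 22 regulators 20 or 21 were listed, of which 6 rose and 2 fell in Pico, 1 rose and 2 fell in V4, and 8 rose and 3 fell in TruSeq. Among all genes 6.78%, 3.6% and 12.3% rose in these kits and 10.8%, 7.41% and 21.8% fell. The 1 rise in V4 and the falls in each kit were near or below those shares. Rela, the p65 subunit of NF-κB, had 975, 932 and 973 counts in the IL-1β mice and 413, 472 and 458 in the saline mice of TruSeq and rose in each kit, by 1.17 ± 0.15, 1.10 ± 0.16 and 1.14 ± 0.10. Irf1, a transcription factor of the interferon response that binds class I promoters, had 216, 142 and 143 counts in the IL-1β mice and 577, 539 and 401 in the saline mice of TruSeq. It fell in each kit, by 1.61 ± 0.26 (adjusted p = 0.000376), 1.43 ± 0.41 (adjusted p = 0.0467) and 1.56 ± 0.20 (adjusted p = 0.000307) on the log2 scale, and in V4 the call was lost with TMM factors (adjusted p = 0.0942) and without mouse ILB.9579, ILB.9582, ILB.9583, UNT.9574 or UNT.9575 (adjusted p = 0.0869 to 0.166). Rfx5, a factor of class II promoters, fell by 0.96 ± 0.32 (adjusted p = 0.0467), 2.48 ± 0.70 (adjusted p = 0.0461) and 1.03 ± 0.17 (adjusted p = 0.00158), with the Pico and V4 calls lost under TMM factors (adjusted p = 0.0807 and 0.0631). They were also lost without mouse ILB.9579, ILB.9582, ILB.9583, UNT.9574 or UNT.9575 (adjusted p = 0.0955 to 0.158) in Pico and without any 1 of the mice (adjusted p = 0.0662 to 0.151) in V4. Ifng, the gene of interferon-γ, was not listed in Pico and had 0, 0 and 0 counts in the IL-1β mice and 0, 6 and 0 in the saline mice of V4 and 0, 0 and 0 counts in the IL-1β mice and 0, 0 and 3 in the saline mice of TruSeq, so no difference was detectable at this depth.

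Of 12 MHC-like and costimulation genes, 11 of them listed in Pico and V4, 1 rose and 3 fell in each of those kits. In TruSeq 2 rose and 4 fell. Among all genes 6.78%, 3.6% and 12.3% rose in Pico, V4 and TruSeq, and 10.8%, 7.41% and 21.8% fell. Icam1, an adhesion molecule for T cells and neutrophils, rose by 1.62 ± 0.23, 1.78 ± 0.27 and 1.99 ± 0.13. Cd1d1, which presents lipids to NKT cells, fell by 0.47 ± 0.15 (adjusted p = 0.0392), 0.60 ± 0.14 (adjusted p = 0.0166) and 0.61 ± 0.11 (adjusted p = 0.00196), and Fcgrt, the neonatal Fc receptor, by 0.60 ± 0.13 (adjusted p = 0.00453), 0.65 ± 0.14 (adjusted p = 0.0123) and 0.46 ± 0.11 (adjusted p = 0.00873). Azgp1 fell by 0.46 ± 0.07, 0.47 ± 0.12 and 0.51 ± 0.08 on the log2 scale. TMM factors ended the calls of Cd1d1 in Pico (0.140) and V4 (0.0637), of Azgp1 in V4 (0.172) and of Fcgrt in TruSeq (0.0568). Calls were lost for Cd1d1 in Pico without any 1 of the mice (adjusted p = 0.0525 to 0.159) and in V4 without mouse ILB.9579, ILB.9582, ILB.9583 or UNT.9575 (adjusted p = 0.0533 to 0.0741), for Azgp1 in V4 without mouse ILB.9579, ILB.9582, ILB.9583, UNT.9574 or UNT.9575 (adjusted p = 0.0769 to 0.109) and for Fcgrt in V4 without mouse ILB.9583 or UNT.9575 (adjusted p = 0.0522 to 0.0598).

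The remaining members were rare or outside antigen presentation. H2-Ke2, a prefoldin subunit, and H2-Ke6, a steroid dehydrogenase, lie in the region by position only, and were called in no kit. The H2-Q2 row with more reads (ENSMUSG00000079507) had 70, 74 and 55 counts in the IL-1β mice and 41, 87 and 60 in the saline mice of TruSeq and no call. H2-K2, H2-T10, H2-Bl, H2-M2, H2-M3, H2-M5, H2-M6-ps, H2-M10.3 and the second H2-Q2 row had at most 57 counts in any library and no call, and are named here after their values were seen. H2-M2, H2-M3 and H2-T22 are the heavy chains that carried the NF-κB match and the core and were not called higher. GENCODE M1 annotates 42 H2- genes, of which 11 were in none of the 3 tables.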

How the data were processed

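Liver RNA of 6 mice was profiled with 3 kits in 18 libraries, and the labels call the mice of a treatment biological replicates. The authors aligned reads to mm9 with GSNAP, removed ribosomal reads, resampled the reads of each kit to a similar depth with PORT and deposited 1 table of gene counts per kit, on the sense strand in Pico and TruSeq and over both strands in V4. After that resampling the library totals are not the sequenced depth, and differences in depth between mice are no longer visible.

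The deposited counts were analysed with limma-voom (limma 3.58.1, R 4.3.3) in each kit, with library totals as sizes, genes above 0 in at least 1 library, and Benjamini-Hochberg adjustment over all genes (called at 0.05). Differences between kits were tested as kit by treatment interactions. The same RNA entered every kit, so mouse numbers pair libraries across kits (correlation of same-mouse deviations 0.0789 to 0.435). Alternatives were TMM factors, edgeR 4.0.16, DESeq2 1.42.0, other filters, the mouse as a block and leaving out each mouse. Library totals limit precision for genes with few counts. No 2 libraries of a group agreed within sampling noise (chi-square per degree of freedom at least 7.04). The fits were tested on simulated data. Gene identifiers, positions and exon lengths (mm9) came from GENCODE M1 and promoter sequences from RefSeq (GRCm38.p6), in Python 3.11.15.

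The members and lists were chosen with earlier results of these data known. Named were 18 core genes, every other H2- gene averaging 10 or more counts in all kits or called in 1, and from each list up to 6 genes called the same way in all kits by size in TruSeq. Members named outside this rule are marked. 1 of the cell type markers read is not reported here.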

Additional observations from a re-analysis of the deposited data

How the results depend on the processing

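Counts of calls are given here as class I heavy chain and loading genes, then class II chains and partners, then all genes. With 1 mouse left out they ranged from 3 to 6, 0 to 0 and 1765 to 2603 in Pico (5, 0 and 3179 with all mice), from 3 to 5, 0 to 3 and 908 to 2093 in V4 (5, 1 and 1986), and from 7 to 10, 0 to 6 and 5114 to 5606 in TruSeq (10, 6 and 6614). Without mouse ILB.9582 class II had 3 calls in V4 and 6 in TruSeq, all lower, where 596 of 17844 and 3239 of 19184 genes fell. The change of the log2 ratio of class I to class II ranged from 0.70 to 1.20, 0.93 to 1.43 and 1.0 to 1.48. For class II keeping genes with 10 or more counts in 3 libraries gave 1 call in Pico (Cd74). TMM factors, edgeR and DESeq2 gave 0 class II calls in V4, where 874, 1002 and 1209 of all 18051 genes fell. In TruSeq TMM factors gave 3, edgeR 1 and DESeq2 1, where 3127, 3086 and 2776 of all 19424 genes fell. The cause was not tested. The ratio change was 1.53 in V4 with H2-K1 and H2-D1 against H2-Aa, H2-Ab1 and H2-Eb1, and 0.75 in TruSeq as a mean of log2 CPM. Counting H2-Gs10 as class I, chosen after seeing the data, gave 6, 6 and 11 calls in Pico, V4 and TruSeq and ratio changes of 0.95, 1.13 and 1.19. No member had a called interaction between kits under any setting, the pairing of libraries by mouse as a replicate block included (0 members in each pair of kits), and the block called 1 gene in all for Pico and TruSeq. Over single genes, 127 fold changes were refitted: under the other settings 557 of 615 refits stayed on their side of the threshold, 40 lost a call and 18 gained one, and with 1 mouse left out 635 of 762 did, with 119 lost and 8 gained. No called value changed sign, and 23 and 25 of these refits had the other sign for genes called in neither. Fewer samples enter each fit with a mouse left out. Low counts limit Ciita, H2-Ob and H2-T24 in every kit, and H2-Gs10 in V4.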
